A study of Mus musculus with 64 samples.

Results

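Hepatic lipogenesis was followed through 10 genes: Srebf1 and Mlxipl, which encode transcription factors, Acly, Acaca, Fasn, Elovl6, Scd1 and Me1, which encode enzymes, Thrsp, a regulator of the pathway, and Pnpla3, which encodes a lipid droplet protein. They were taken by symbol, for their role in fatty acid synthesis, from the 55573 gene IDs of the read count table, and all 10 passed the filter on low counts in both tissues. The mice were adult males aged 10 to 18 weeks, F1 hybrids of 129sv mothers and C57BL/6J fathers, fed ad libitum. Angelman syndrome (AS) mice carry a maternal Ube3a allele that lacks exon 5 next to an intact paternal allele (Ube3a m-/p+), and wild-type (WT) mice were compared with them. Each mouse carried for 5 days a slow-release pellet under the skin, made either of cholesterol alone (vehicle) or of cholesterol with 20 mg corticosterone (CORT), the main glucocorticoid of rodents. RNA was sequenced from the livers of 5 mice in each of the 4 groups (20 libraries, named L1 to L20 after their labels) and from the left hippocampus, the contrast tissue, with 18 of its 20 libraries used. Both tissues were collected from the same 20 mice, and each of the 20 label numbers that a liver and a hippocampus share names the same genotype and treatment. The 5 mice of a group are separate animals, so errors are the spread between mice. AS is a germline model: in the liver the paternal allele stays active, whereas mature neurons silence it.

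In the liver, excess carbohydrate is turned into fat. Citrate exported from mitochondria is cleaved by ATP citrate lyase (Acly) to cytosolic acetyl-CoA, which acetyl-CoA carboxylase (Acaca) converts to malonyl-CoA, and fatty acid synthase (Fasn) joins these units to palmitate. Elovl6 lengthens palmitate to stearate, and stearoyl-CoA desaturase (Scd1) introduces the double bond that yields oleate, while malic enzyme (Me1) supplies cytosolic NADPH. Insulin acts on the programme mainly through SREBP-1c, a product of Srebf1, and glucose through ChREBP, the product of Mlxipl. Thrsp (Spot 14) responds to thyroid hormone and carbohydrate and promotes fatty acid synthesis, and Pnpla3 is a target of both transcription factors. Glucocorticoids act through the glucocorticoid receptor (GR), and long exposure is known to favour fat storage in the liver.

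The genes lie on 7 chromosomes of the GRCm38 mouse assembly. Fasn (ENSMUSG00000025153, chr11:120805846-120824547, minus strand), Acaca (ENSMUSG00000020532, chr11:84129672-84401651, plus), Acly (ENSMUSG00000020917, chr11:100476353-100528000, minus) and Srebf1 (ENSMUSG00000020538, chr11:60199089-60222581, minus) share chromosome 11. Me1 (ENSMUSG00000032418) is at chr9:86581371-86695953 (minus), Thrsp (ENSMUSG00000035686) at chr7:97412938-97417730 (minus) and Scd1 (ENSMUSG00000037071) at chr19:44394455-44407879 (minus). Mlxipl (ENSMUSG00000005373) is at chr5:135089890-135138382 (plus), Elovl6 (ENSMUSG00000041220) at chr3:129532355-129638495 (plus) and Pnpla3 (ENSMUSG00000041653) at chr15:84167837-84187236 (plus).

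Promoter sequence was available from RefSeq (GRCm38.p6) for 9 of the 10 genes, as 13 windows of the 250 bases before an annotated start; Scd1 was the gene without one. One window is shown for each of 4 genes: Me1 and Thrsp, which passed a test of CORT in liver, Acly, whose transcript was most closely correlated with that of Me1 from liver to liver, and Fasn, the synthase itself. Acaca also passed a test of CORT in liver, averaged over genotypes, but its window is not shown. The 4 shown are minus-strand genes, written 5′ to 3′ toward the start site, at chr9:86695915-86696164 (Me1), chr7:97417551-97417800 (Thrsp), chr11:100528001-100528250 (Acly) and chr11:120824548-120824797 (Fasn). Capitals mark CCAAT boxes (CCAAT or its complement ATTGG) and GC boxes (GGGCGG or its complement CCGCCC); adjoining or overlapping boxes run together.

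Me1: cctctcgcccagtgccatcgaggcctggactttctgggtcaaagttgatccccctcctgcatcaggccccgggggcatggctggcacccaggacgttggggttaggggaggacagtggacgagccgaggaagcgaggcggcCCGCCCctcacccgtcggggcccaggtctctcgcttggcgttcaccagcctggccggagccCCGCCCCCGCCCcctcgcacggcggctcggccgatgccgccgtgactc

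Thrsp: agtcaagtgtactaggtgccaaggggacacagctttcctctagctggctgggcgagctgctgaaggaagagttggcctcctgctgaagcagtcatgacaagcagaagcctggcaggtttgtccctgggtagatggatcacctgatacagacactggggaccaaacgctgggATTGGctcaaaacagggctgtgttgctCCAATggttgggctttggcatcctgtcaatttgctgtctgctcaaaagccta

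Acly: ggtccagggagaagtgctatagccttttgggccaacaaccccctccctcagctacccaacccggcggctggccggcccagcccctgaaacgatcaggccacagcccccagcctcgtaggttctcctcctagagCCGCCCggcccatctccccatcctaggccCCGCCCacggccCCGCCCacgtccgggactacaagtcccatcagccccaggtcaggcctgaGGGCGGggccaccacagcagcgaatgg

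Fasn: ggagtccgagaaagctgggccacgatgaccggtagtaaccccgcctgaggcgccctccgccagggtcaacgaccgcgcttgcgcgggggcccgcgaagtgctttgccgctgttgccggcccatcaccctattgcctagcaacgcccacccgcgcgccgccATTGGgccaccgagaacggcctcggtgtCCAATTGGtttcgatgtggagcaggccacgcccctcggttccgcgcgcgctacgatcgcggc

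The Me1 window shown held 3 GC boxes, the Acly window 4 GC boxes, the Thrsp window 2 CCAAT boxes and the Fasn window 3 CCAAT boxes. A further Me1 window, at chr9:86687278-86687527, held 1 CCAAT box and no GC box, and the Acaca window held neither. Both strands were searched in every window. Over the 13 windows, 7 held a CCAAT box (6 genes) and 6 held a GC box (5 genes), against 33.8% and 32.7% of the 32851 windows of the RefSeq table. A sterol response element written as TCACNCCAC stood in 1 window, that of Mlxipl (1.05% of all windows), and an E-box (CACGTG) also in 1 Mlxipl window (6.02%). The LXR element, AGGTCA repeated after a gap of 4 bases (0.0152% of all windows), and the full GR element, AGAACA and its complement TGTTCT with 3 bases between them (0.00913%), were in 0 of the 13 windows, and AGAACA alone was in 2, of Mlxipl and Acaca (16.1%). The windows are short and a match is a run of letters only.

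Liver libraries held 18612550 to 20868924 counts on genes, so that 3 counts, the limit that a count of 0 allows, came to 0.144 to 0.161 CPM (counts scaled to a common library size), and hippocampus libraries held 19112929 to 21783009. Ube3a, the deleted gene, was at 48.3 ± 4.96 CPM (SD, n = 5) in WT vehicle livers and 33.0 ± 4.05 CPM in AS vehicle livers, a log2 difference of -0.55 (SE 0.0856, edgeR adjusted p = 0.0191). With CORT it was at 48.8 ± 4.01 and 34.9 ± 1.93 CPM, and no AS liver (28.5 to 38.6 CPM) reached the lowest WT liver (41.8 CPM). In the hippocampus the Ube3a means of AS and WT mice were 80.8 and 83.5 CPM with vehicle and 86.1 and 78.3 CPM with CORT, so that the total level there does not mark the genotype. Hepatocyte markers summed to 89814 to 133889 CPM in every liver, and 6 adipocyte markers to only 2.45 to 4.91 CPM, with Lep at 0 throughout. The hepatocyte sum had medians of 94775 and 102477 CPM in WT vehicle and CORT livers, and of 101074 and 127944 CPM in AS ones. With CORT, averaged over genotypes, Alb (log2 0.23) and Hnf4a (0.34) rose and Cyp2e1 fell (-0.60) by edgeR, while Apoa1 and Ttr did not pass. Between 4.52 and 8.93% of reads were not aligned in vehicle livers and 1.49 to 4.77% in CORT livers, and the summed level of 5 Kupffer cell markers was 113 to 210 CPM with vehicle and 56.0 to 84.9 CPM with CORT. All 5 of these, 3 of 3 erythroid markers (Hba-a1 -0.990 and Hbb-bs -0.999 on the log2 scale, averaged over genotypes), 3 of 4 stellate cell markers (Hgf -0.74, Colec11 -0.52) and 2 of 4 endothelial markers (Kdr -0.66, Clec4g -0.41) fell with CORT by edgeR, and the endothelial marker Lyve1 rose (1.11). The part of any of these in the CORT results below was not tested. In bulk liver, fewer cells of a type and less RNA per cell cannot be told apart.

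The lipogenic genes differed widely in level in the liver. Per kilobase of exon, Scd1 stood highest in WT vehicle livers at 2214 ± 814 CPM per kb (SD, n = 5), followed by Thrsp (257 ± 198), Fasn (119 ± 45.8), Acly (107 ± 30.6) and Srebf1 (97.0 ± 34.1). Then came Me1 (59.7 ± 16.5), Mlxipl (52.8 ± 8.63), Elovl6 (26.2 ± 7.70), Acaca (7.48 ± 2.40) and, last, Pnpla3 (0.476 ± 0.631 CPM per kb). The mean ± SD intervals of neighbours from Thrsp down to Mlxipl overlapped, while those of Scd1 stood apart from Thrsp, Mlxipl from Elovl6, Elovl6 from Acaca, and Acaca from Pnpla3. The order rests on the exon length chosen: per kilobase of the longest transcript Mlxipl was at 80.8 and above Me1 at 69.8, and Acaca was at 13.4.

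Compared with the hippocampus of vehicle mice, 9 of the 10 genes were higher in liver (edgeR quasi-likelihood test, Benjamini-Hochberg adjustment), where 42.4% of the 16205 genes tested were and 92.8% differed in either direction. The differences were largest for Mlxipl (log2 7.79) and Scd1 (7.26), followed by Thrsp (5.29), Srebf1 (3.80), Acly (3.21), Fasn (2.91), Me1 (2.81), Elovl6 (2.41) and Acaca (1.95), with adjusted p-values of 2.44e-11 or lower. Mlxipl was low in the hippocampus, at 2.89 ± 0.464 CPM (SD, n = 4) in WT vehicle mice against 293 ± 47.8 CPM (n = 5) in liver. Fasn, in contrast, was at 353 ± 17.04 CPM in the hippocampus and 1306 ± 502 CPM in liver of WT vehicle mice. Pnpla3 did not pass the test (0.62, SE 0.575, adjusted p = 0.301), with a hippocampal level of 2.59 ± 0.256 CPM in WT vehicle mice, against 0 to 14.7 CPM over the vehicle livers.

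**Figure D1:**
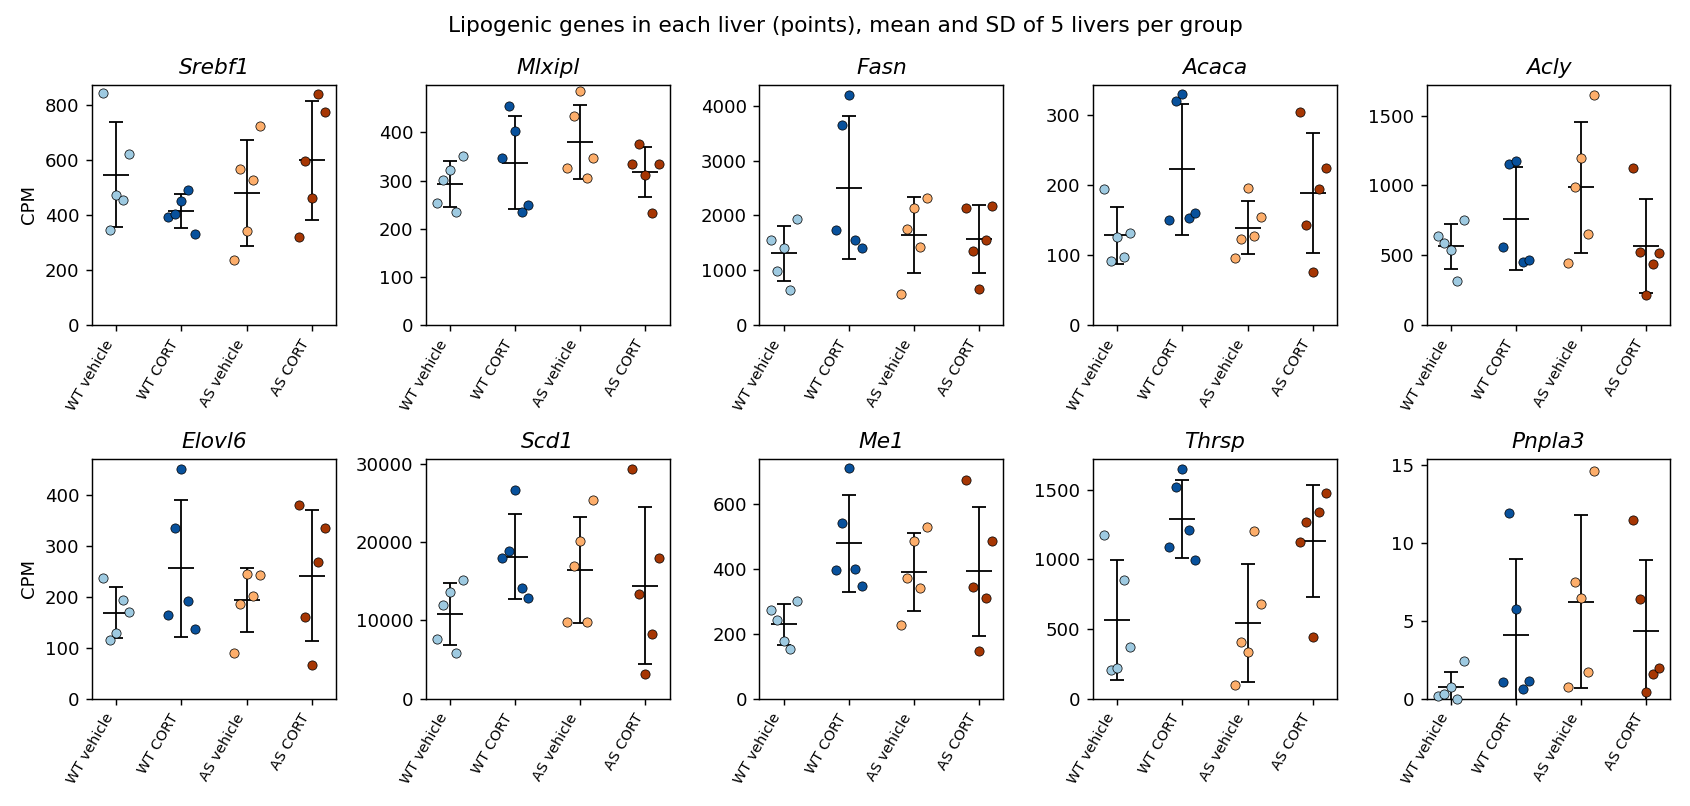
Each panel shows one lipogenic gene in CPM (linear axis from 0), with 1 point for each of the 20 livers in the 4 groups and a bar for the mean and SD (n = 5); SD bars that pass 0 end at the axis. Me1 is the gene whose WT CORT livers (348 to 713 CPM) all stand above the WT vehicle livers (153 to 303 CPM), while Thrsp is higher on average with CORT in both genotypes.

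The first comparison asked what CORT did to the programme in WT liver. Me1, the NADPH source, rose about 2.09-fold. It was at 153 CPM in L4, 177 in L17, 242 in L13, 274 in L1 and 303 in L6 among vehicle livers, and at 348 in L5, 397 in L12, 399 in L3, 542 in L15 and 713 in L20 among CORT livers. Every CORT liver lay above every vehicle liver, as for 7.03% of all genes, with means of 230 ± 63.5 and 480 ± 149 CPM (SD, n = 5). The log2 difference was 1.06 (SE 0.317, edgeR adjusted p = 0.0228). Me1 was the 1 gene of the 10 to pass, against 18.6% of all 12273 genes tested in either direction and 8.73% higher. The call is narrow: without vehicle liver L4 the difference was 0.95 (adjusted p = 0.0565), without vehicle liver L17 0.98 (0.0580) and without CORT liver L20 0.87 (0.0770).

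The other 9 genes did not pass in WT liver, although 8 of their differences were above 0 and 5 of the 10 genes had an unadjusted p under 0.05, as did 30.8% of all genes. Thrsp was at 202 CPM in L13, 216 in L17, 368 in L6, 854 in L4 and 1177 in L1 with vehicle, and at 995 in L5, 1088 in L12, 1207.5 in L3, 1517 in L15 and 1646 in L20 with CORT. Only vehicle liver L1 reached into the CORT range, and the log2 difference was 1.20 (SE 0.530, adjusted p = 0.128). Without L1 it was 1.65 and passed (adjusted p = 0.0437). With all livers it also passed by limma-voom (1.77, adjusted p = 0.0167) and with 1 surrogate variable in edgeR (1.73, adjusted p = 0.00485).

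Acaca, which makes the committed step, was at 91.8 CPM in L13, 96.7 in L4, 125 in L17, 130.5 in L6 and 194 in L1 with vehicle. With CORT it was at 150.3 CPM in L12, 153 in L3, 159 in L5, 319 in L15 and 330.1 in L20. The CORT livers fell into 3 inside the vehicle range and 2, L15 and L20, far above them, and the log2 difference was 0.80 (SE 0.320, adjusted p = 0.0900), or 1.001 without L1 (adjusted p = 0.0462). Fasn was at 643 CPM in L4, 990.4 in L13, 1411 in L17, 1554 in L1 and 1934 in L6 with vehicle, and at 1396 in L5, 1557 in L3, 1739.8 in L12, 3639.9 in L15 and 4199 in L20 with CORT. The same 2 CORT livers stood out, the other 3 overlapped the vehicle livers, and the log2 difference was 0.94 (SE 0.400, adjusted p = 0.112).

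Scd1 ranged from 5786 to 15165 CPM with vehicle and from 12802 to 26710.3 CPM with CORT in WT mice (0.74, SE 0.423, adjusted p = 0.250). Elovl6 differed by 0.60 (SE 0.396, adjusted p = 0.330) and Acly by 0.43 (SE 0.399, adjusted p = 0.511), and without CORT liver L20 they were at 0.29 and 0.22. These 3 enzymes overlapped between the groups. Of the transcription factors, Mlxipl differed by 0.21 (SE 0.180, adjusted p = 0.483), and Srebf1 was the single gene with a value below 0 (-0.40, SE 0.286, adjusted p = 0.366). Srebf1 was at 346 CPM in L13, 452 in L4, 470.5 in L17, 621 in L6 and 841 in L1 with vehicle and at 328 in L5, 392 in L12, 404 in L15, 448 in L20 and 491 in L3 with CORT, so that its CORT livers sat close together inside and just under the vehicle range. The median log2 difference of the 10 genes was 0.77, against -0.00 over all genes tested.

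Pnpla3 was near the limit of detection in WT vehicle livers, with no count in L4, 0.192 CPM in L1, 0.315 in L13, 0.771 in L17 and 2.41 in L6. With CORT it was at 0.594 CPM in L3, 1.04 in L12, 1.13 in L5, 5.77 in L20 and 11.9 in L15. The groups overlapped, with L15 and L20 again highest (log2 difference 2.45, SE 1.05, adjusted p = 0.115). The value rested on single livers, at 1.51 without L15 (adjusted p = 0.386) and 3.64 without L6 (adjusted p = 0.0513).

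In AS liver none of the 10 genes passed the edgeR test, where 27.5% of all genes did; none had an unadjusted p under 0.05, against 38.7% of all genes, DESeq2 called 0 (1 unadjusted) and limma-voom called 1, Thrsp (1.49, adjusted p = 0.0320). Thrsp was at 99.6 CPM in L11, 336 in L19, 404 in L14, 676 in L9 and 1204 in L2 with vehicle and at 443 in L18, 1127 in L10, 1267 in L16, 1342 in L7 and 1477 in L8 with CORT. Its groups overlapped through vehicle liver L2 and CORT liver L18, and the log2 difference of 1.06 (SE 0.528, adjusted p = 0.146) was 1.58 without L2 (adjusted p = 0.0288).

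Me1 in AS mice was at 228 CPM in L11, 342 in L2, 373 in L14, 487 in L19 and 529.8 in L9 with vehicle, and at 147 in L18, 311 in L7, 345 in L16, 486 in L8 and 675 in L10 with CORT. The CORT livers spread to both sides of the vehicle livers, around means of 392 ± 120 and 393 ± 199 CPM (SD, n = 5), and the log2 difference was 0.01 (SE 0.313, adjusted p = 0.992). Acly had the value farthest below 0 at -0.81 (SE 0.401, adjusted p = 0.144). It ranged from 446 to 1649.6 CPM with vehicle and from 217 to 1126 CPM with CORT. Without CORT liver L10 its difference was -1.21 and passed (adjusted p = 0.0244).

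The remaining AS differences lay on both sides of 0, and the median of the 10 was -0.03 against -0.00 over all genes. Acaca was at 95.2 CPM in L11, 122 in L14, 127 in L2, 154 in L9 and 196 in L19 with vehicle and at 76.0 in L18, 142 in L16, 194 in L7, 224 in L8 and 304 in L10 with CORT (0.44, adjusted p = 0.333). Fasn was at 559 CPM in L11, 1428 in L2, 1749.9 in L14, 2134 in L19 and 2322 in L9 with vehicle and at 647 in L18, 1343 in L16, 1549 in L7, 2129.7 in L10 and 2165 in L8 with CORT (-0.06, adjusted p = 0.926). In both genes L11 was the lowest vehicle liver and L18 the lowest CORT liver, and the groups overlapped almost wholly for Fasn. Srebf1 had a log2 difference of 0.32 (adjusted p = 0.437), Elovl6 of 0.32 (0.587), Scd1 of -0.19 (0.782), Mlxipl of -0.26 (0.310) and Pnpla3 of -0.50 (0.714). The direction for Me1, Fasn, Scd1 and Pnpla3 turned under some other settings or without 1 liver.

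**Figure D2:**
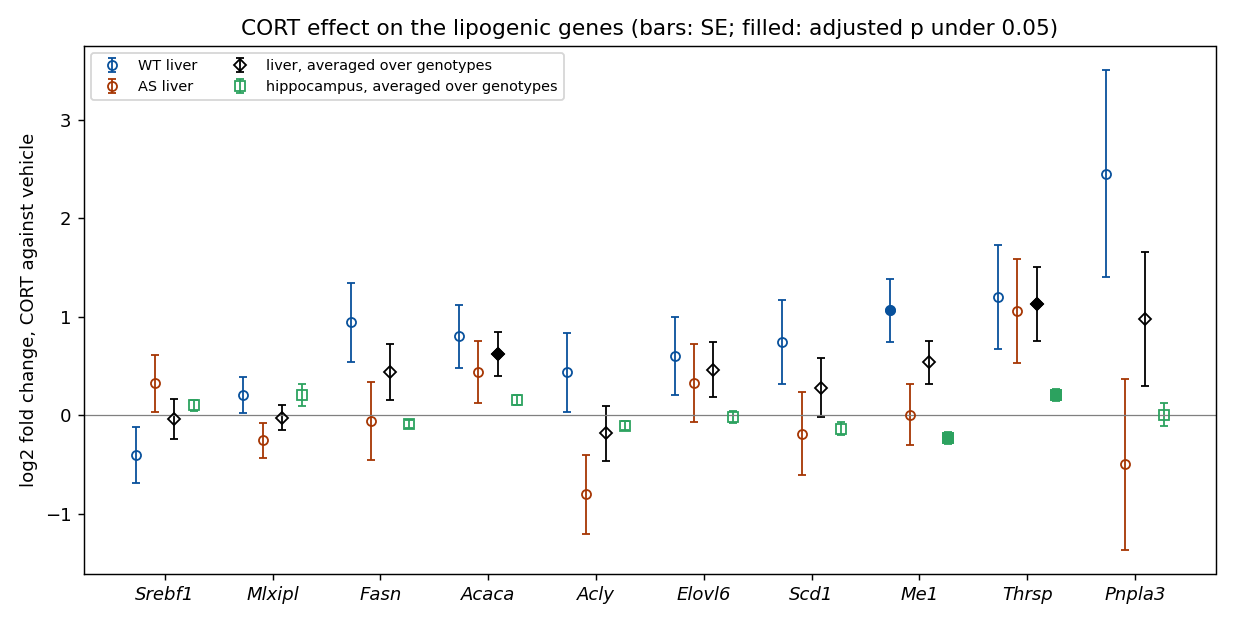
Log2 difference between CORT and vehicle (points, with bars of 1 SE from edgeR, filled where the adjusted p is under 0.05) for each lipogenic gene in WT liver, AS liver, liver averaged over genotypes and hippocampus averaged over genotypes. Me1 is at 1.06 in WT liver and 0.01 in AS liver, Thrsp at 1.20 and 1.06, and the hippocampal points lie between -0.23 and 0.21.

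Averaged over both genotypes, Thrsp and Acaca rose in liver, 2 of the 10 genes, where 17.5% of all genes rose and 37.1% passed in either direction. The log2 difference of Thrsp was 1.13 (SE 0.374, edgeR adjusted p = 0.0229), and it passed without any 1 of the 20 livers. Acaca differed by 0.62 (SE 0.226, adjusted p = 0.0371). It did not pass in 12 of the 20 fits that left out 1 liver: without L2 the difference was 0.60 (adjusted p = 0.0517), without L4 0.58 (0.0599), without L6 0.62 (0.0502), without L7 0.61 (0.0509), without L8 0.58 (0.0623), without L10 0.49 (0.0835), without L11 0.56 (0.0685), without L13 0.57 (0.0676), without L14 0.60 (0.0606), without L15 0.54 (0.0732), without L17 0.61 (0.0542) and without L20 0.53 (0.0771). With limma-voom Acaca was at 0.49 (adjusted p = 0.101). Me1 differed by 0.53 (SE 0.222, adjusted p = 0.0660), and it passed without L18 (0.64, adjusted p = 0.0135) and with 1 surrogate variable (0.55, adjusted p = 0.0423). Fasn differed by 0.44 (SE 0.281, adjusted p = 0.243).

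The genotypes were then compared directly. With vehicle, none of the 10 genes passed between AS and WT liver by edgeR or DESeq2, where 0.0163% of all genes passed by edgeR, and 3 had an unadjusted p under 0.05, against 10.3% of all genes. These were Pnpla3 (log2 3.06 higher in AS, SE 1.04, adjusted p = 0.299), Me1 (0.77, SE 0.315, adjusted p = 0.408) and Mlxipl (0.38, SE 0.180, adjusted p = 0.482). Pnpla3 was at 0.738 CPM in L11, 1.68 in L2, 6.50 in L19, 7.51 in L14 and 14.7 in L9 among AS vehicle livers, of which 3 stood above the highest WT vehicle liver, L6 at 2.41 CPM. Its WT vehicle livers, with 0 to 49 counts, did not meet the filter on low counts. Pnpla3 was tested because other groups met it, such as AS vehicle (15 to 292 counts), where it is higher. Its place among these 3 genes, and in the interaction below, depends on that.

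With CORT none of the 10 genes passed between genotypes by edgeR or DESeq2 (0.277% of all genes passed by edgeR), and 0 had an unadjusted p under 0.05, against 8.29% of all genes. The values farthest from 0 were Fasn at -0.68 (adjusted p = 0.719) and Srebf1 at 0.53 (adjusted p = 0.666). In AS CORT livers Srebf1 was at 319 CPM in L10, 462 in L18, 596 in L16, 772 in L8 and 840.0 in L7, so that 3 of the 5 lay above every WT CORT liver. Averaged over treatments, Pnpla3 differed by 1.58 (SE 0.684, adjusted p = 0.425), and none of the 10 passed by edgeR or DESeq2 (0.326% of all genes by edgeR; unadjusted, 1 of the 10 and 10.01% of all genes).

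The difference in CORT response between the genotypes was tested as an interaction. None of the 10 genes passed, nor did any of the 12273 genes (0% of all genes; 995, or 8.11%, at an unadjusted p under 0.05; DESeq2 called 9 genes, none of the 10). Unadjusted p-values were under 0.05 for 3 of the 10, namely Me1 (-1.06, SE 0.444, adjusted p = 0.553), Acly (-1.24, SE 0.565, adjusted p = 0.592) and Pnpla3 (-2.95, SE 1.37, adjusted p = 0.598). The 2.09-fold rise of Me1 in WT liver and its value of 0.01 in AS liver are thus not shown to differ.

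Between mice of one group the lipogenic genes varied more than most genes of the liver. The SD of log2 CPM within groups had a median of 0.716 over the 10 genes, from 0.310 (Mlxipl) to 1.73 (Pnpla3), against 0.194 over all genes tested, and all 10 lay above that median, Mlxipl the least, with an SD above that of 74.8% of genes. In the hippocampus the same 10 genes had a median of 0.133, against 0.132 over all genes, with 5 above, of which Mlxipl (0.236) was above 76.6% of genes. In liver, differences between mice of one group made up from 58.1% (Thrsp) to 92.6% (Elovl6) of the variance of a gene, and treatment made up 41.0% for Thrsp.

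**Figure D3:**
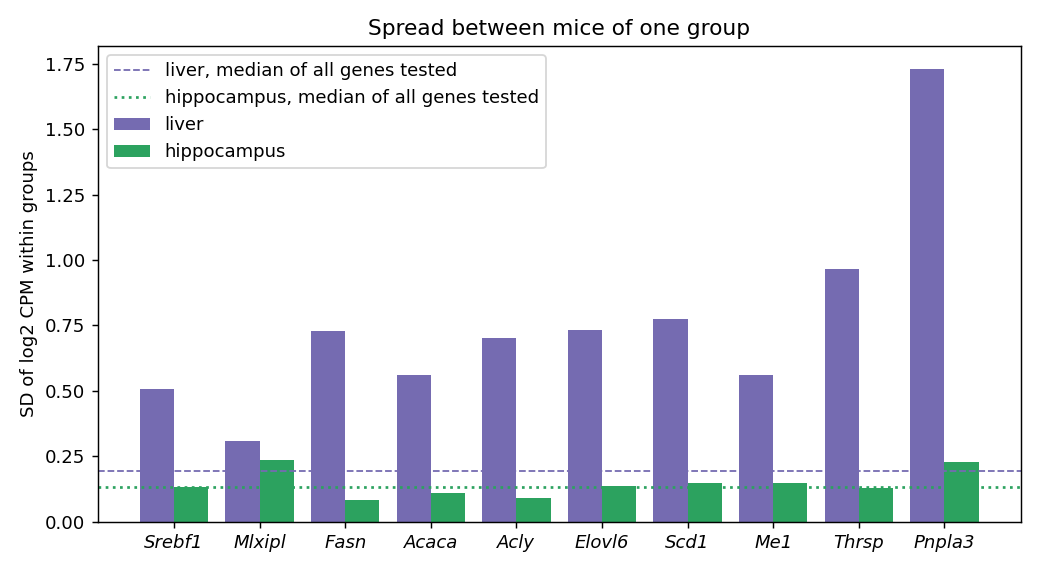
SD of log2 CPM between mice of one group (bars from 0) for each lipogenic gene in liver (4 groups of 5) and hippocampus, with lines at the median over all genes tested. Liver bars run from 0.310 to 1.73 and all exceed the liver line at 0.194, while hippocampus bars run from 0.0812 (Fasn) to 0.236 (Mlxipl) on both sides of their line at 0.132.

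The spread was shared among the 10 genes. The counts that follow were not made over all genes tested. Of the AS vehicle livers, L11 was lowest for 8 of the 10 genes, and of the AS CORT livers L18 was lowest for 8. L4 and L5 were lowest for 6 genes in the WT vehicle and WT CORT group. At the other end, L20 was highest for 7 genes of its group, and L6, L9 and L10 for 6 each. Averaged over the 10 genes, L18 lay 1.21 and L11 1.07 below their group means on the log2 scale, and L10 lay 0.73, L20 0.67, L9 0.66 and L15 0.60 above. With each gene scaled by its SD over all 20 livers, the mean of the 10 genes was 0.36 in WT CORT livers and -0.50 in WT vehicle livers, and 0.05 and 0.09 in the AS groups.

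**Figure D4:**
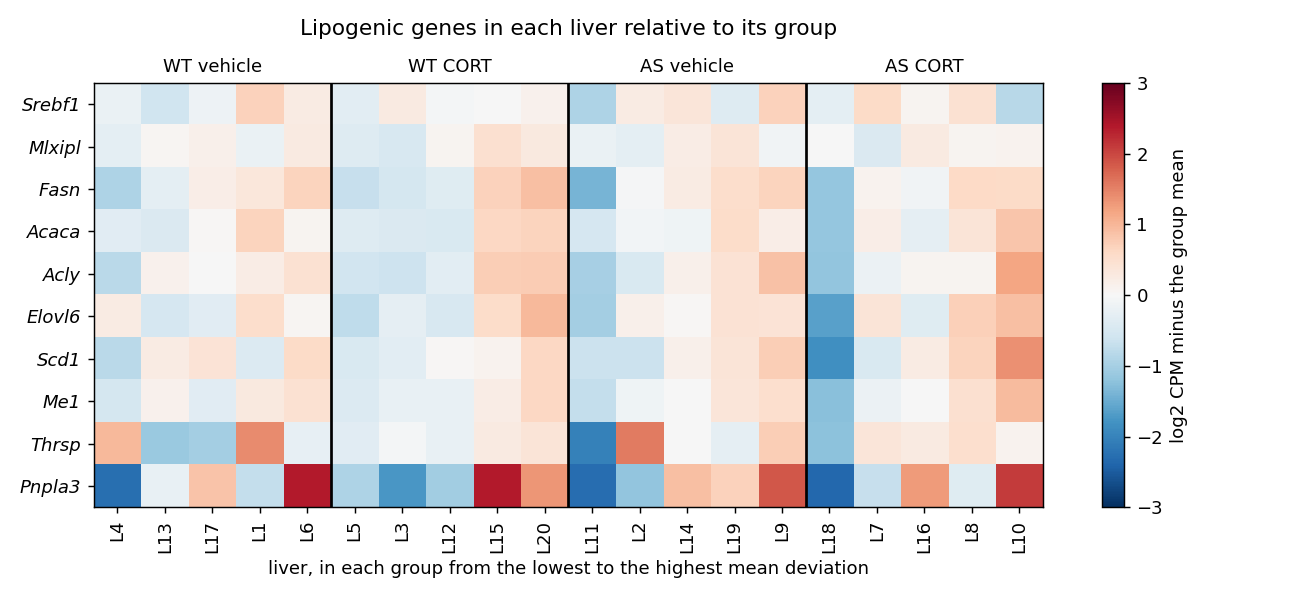
Deviation of each of the 20 livers (columns, by group) from its group mean on the log2 CPM scale for each lipogenic gene (rows), as colours, with livers ordered in each group by their mean deviation. The columns of L18 and L11 are low across most genes, with means of -1.21 and -1.07, and those of L10 and L20 are high, with means of 0.73 and 0.67.

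To quantify this, the deviations of the 20 livers from their group means were correlated for all 45 pairs of the 10 genes, with 100000 permutations within groups and adjustment over the 45. Pairs of other liver genes were not correlated in this way. Whether the shared spread is particular to these 10 genes was therefore not tested. Pearson's r was above 0 in 43 pairs, with a median of 0.650 (range -0.148 to 0.926; median Spearman's rho 0.657), and 28 pairs passed by each coefficient, 27 by both and 29 by at least 1. After leaving out the 2 livers farthest from the median of the first gene of a pair, the median was 0.535 (range -0.232 to 0.900). Acly and Me1, both suppliers of the pathway, were closest (r = 0.926, rho = 0.919, permutation adjusted p = 7.5e-05, the smallest p that the permutations gave being 1e-05 before adjustment; 0.895 without 2 livers). Acaca and Elovl6 followed (r = 0.914, rho = 0.928, 0.860 without 2 livers), as did Acly and Pnpla3 (r = 0.914, rho = 0.911, 0.900 without 2 livers) and Fasn and Acly (r = 0.908). Thrsp passed in 3 of 9 pairs, with Elovl6 (r = 0.693, rho = 0.684, permutation adjusted p = 0.00051; 0.523 without 2 livers), Srebf1 and Acaca (r = 0.497, rho = 0.540, permutation adjusted p = 0.0259; 0.437 without 2 livers). Its r with Fasn, which did not pass (0.475, rho = 0.408, permutation adjusted p = 0.0857), was 0.0938 without L11 and L18.

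Of the transcription factors, Srebf1 passed in 1 of its 9 pairs, with Thrsp (r = 0.675, rho = 0.660, permutation adjusted p = 0.0180; 0.656 without L11 and L10). Its r was 0.467 with Fasn (adjusted p = 0.0900, permutation test) and 0.0416 with Scd1. Mlxipl passed in 4 of 9 pairs, with Pnpla3 (0.713), Acly (0.593), Fasn (0.562) and Scd1 (0.523), and with Me1 by rho alone (r = 0.434, rho = 0.532). Fasn, Acaca, Acly, Elovl6, Scd1 and Pnpla3 each passed in 7 of 9 by r and Me1 in 6. The pair of Elovl6 and Scd1 passed by r alone (r = 0.650, permutation adjusted p = 0.0251; rho = 0.519, 0.0538) and had an r of 0.379 without L18 and L11. Of the livers that were low for most of the 10 genes, L18 had the highest sum of hepatocyte markers (133889 CPM), and L4 (108857 CPM), L5 (107755 CPM) and L11 (106993 CPM) lay within the range of the other livers. The part of hepatocyte content in the shared spread was not tested.

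Outside the 10, the genes whose deviations were most like the members' mean over the 20 livers were Rnd2 (r = 0.887), Gm7049 (0.874), Miga2 (0.869), Tlcd1 (0.854), Supt3 (0.851), Pcyt2, an enzyme of phosphatidylethanolamine synthesis (0.847), 2310022B05Rik (0.845), Gpam, the acyltransferase that starts glycerolipid synthesis (0.843), Pstpip2 (0.841) and Gm5182 (0.828). For Srebf1 they were Fbxw9 (0.857), Acot11, an acyl-CoA thioesterase (0.852), Gna14 (0.850), Mid1ip1, the close relative of Thrsp (0.848), and Ppp5c (0.828). These values describe the 20 livers and carry no test.

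In the hippocampus CORT moved the same genes little. Averaged over genotypes, Thrsp rose (log2 0.21, SE 0.0582, edgeR adjusted p = 0.0302) and Me1 fell (-0.23, SE 0.0643, adjusted p = 0.0252), 2 of 10 genes, where 4.19% of all genes were higher, 5.48% lower and 9.67% either. Me1 went from 80.0 ± 3.76 CPM (SD, n = 4) to 68.1 ± 9.49 (n = 5) in WT mice and from 83.0 ± 5.44 (n = 4) to 70.5 ± 7.97 (n = 5) in AS mice. Thrsp went from 29.6 ± 2.76 to 34.0 ± 2.65 CPM in WT mice and from 24.4 ± 1.43 to 28.2 ± 3.20 CPM in AS mice. For both genes the CORT and vehicle ranges overlapped in each genotype. Acaca was at 0.16 (SE 0.0502, edgeR adjusted p = 0.0579), and DESeq2 called it (0.16, adjusted p = 0.0335). Within a genotype none of the 10 passed by edgeR or DESeq2 (WT 2.92% and AS 3.77% of all genes; unadjusted, 3 of the 10 and 15.6% of all genes in WT, 5 of the 10 and 15.2% in AS), with Me1 at -0.23 and -0.24, Thrsp at 0.20 and 0.21, and Acaca at 0.15 and 0.16 in WT and AS mice. The lowest adjusted p of the 10 in AS hippocampus was that of Srebf1 (0.24, SE 0.0822, edgeR adjusted p = 0.131), which was at -0.04 in WT hippocampus, and at -0.0584 in AS hippocampus with all 20 libraries.

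Both hippocampal calls were fragile. Me1 did not pass without H2 (-0.22, adjusted p = 0.0521), H6 (-0.22, 0.0517) or H17 (-0.22, 0.0512). Thrsp did not pass without H2 (0.19, adjusted p = 0.0629), H3 (0.18, 0.0601), H6 (0.19, 0.0659), H10 (0.17, 0.0537), H12 (0.20, 0.0565), H16 (0.20, 0.0513) or H17 (0.19, 0.0670). Acaca passed without H3 (0.18, adjusted p = 0.0242), H6 (0.18, 0.0419), H12 (0.17, 0.0460), H14 (0.17, 0.0472) or H18 (0.17, 0.0393). With the 2 libraries that the study left out, an AS vehicle and a WT vehicle hippocampus, Me1 was at -0.19 (adjusted p = 0.143) and Thrsp at 0.35 (adjusted p = 0.106). The summed oligodendrocyte markers had medians of 3807 CPM (WT vehicle), 2197 (WT CORT), 4179.7 (AS vehicle) and 3257 (AS CORT), with Mag at -0.31 (adjusted p = 0.455), Mog at -0.29 and Mbp at -0.22, none of which passed. Hepatocyte markers, which include Ttr, also a choroid plexus gene, summed to 52.9 to 2686 CPM (median 657) in WT vehicle, 6.90 to 72.2 CPM (58.6) in WT CORT, 51.6 to 294 CPM (104) in AS vehicle and 4.89 to 385 CPM (48.3) in AS CORT hippocampi, lower in the median with CORT in both genotypes. Their highest hippocampal counts were 59530 for Ttr, 1931 for Alb, 211 for Apoa1, 71 for Cyp2e1 and 14 for Hnf4a. The 3 choroid plexus markers summed to medians of 53.0 and 36.1 CPM in WT vehicle and CORT hippocampi. In AS hippocampi these medians were 38.6 and 41.5 CPM. The part of all these markers in the Me1 and Thrsp results was not tested.

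Averaged over genotypes, the CORT response of liver was set against that of hippocampus in one fit over both tissues. Me1 differed between them: its log2 response was higher in liver by 0.79 (SE 0.253, edgeR adjusted p = 0.0231), and it passed without any 1 of the 38 libraries (0.65 to 0.90), whereas limma-voom gave 0.67 (adjusted p = 0.0546). By genotype, Me1 was at 1.06 in WT liver and 0.01 in AS liver, against -0.23 and -0.24 in hippocampus. The tissue difference was not tested within a genotype. Me1 was the 1 gene of the 10 to pass, where 10.7% of all genes were higher and 19.6% passed in either direction. Thrsp had a difference of 0.94 (adjusted p = 0.115), which was 1.18 without L1 (adjusted p = 0.0320) and 1.21 without L2 (0.0222). By limma-voom Thrsp passed (1.45, adjusted p = 0.0119) where Me1 did not. The fit took the libraries as independent, although the mice gave both tissues. With the label number as a replicate block, over the 18 numbers with both tissues, Me1 (0.83, adjusted p = 0.0182) and Thrsp (1.22, adjusted p = 0.0471) both passed. Acaca had a difference of 0.49 (adjusted p = 0.188).

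The genes around the 10 were read in the CORT difference averaged over genotypes in liver, beside the 17.5% of all genes that rose and 19.6% that fell. Of 6 known GR targets, 3 rose: Fkbp5, a GR co-chaperone (3.78, SE 0.223, edgeR adjusted p = 1.05e-10), Tsc22d3 (1.49) and Pck1, the gluconeogenic enzyme (0.94, adjusted p = 0.0121). Per1 was at 1.15 (adjusted p = 0.194), Tat at 0.27 (0.148) and Sgk1 at -0.11 (0.625). Of 13 genes of insulin and glucose input to lipogenesis 7 rose and 1 fell. Pklr, the pyruvate kinase that is a ChREBP target, rose by 1.32 (SE 0.226, edgeR adjusted p = 0.000111), Khk, the fructokinase, by 0.98, and Foxo1, a transcription factor restrained by insulin, by 0.60.

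Of 14 genes that control lipogenic transcription 1 rose and 3 fell. Pparg, a lipogenic nuclear receptor, fell (-0.94, SE 0.158, adjusted p = 8.77e-05), as did Ppargc1b, a coactivator of SREBP (-0.69, adjusted p = 0.00792), and Scap, the SREBP escort (-0.29), while Mlx, the partner of ChREBP, rose by 0.21. Insig1, which retains SREBP in the endoplasmic reticulum, was at -0.47 (adjusted p = 0.182), Insig2 at 0.84 (0.0877) and Nr1h3, which encodes LXR alpha, at -0.00 (0.960). The list had a median of -0.01.

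Of 12 genes of substrate and NADPH supply 3 rose (Pdha1 0.38, Taldo1 0.24, Mpc2 0.14) and 1 fell (Mpc1, -0.16), with a list median of 0.13. Of 11 tested genes of elongation and desaturation 3 fell and 8 did not pass: Elovl2 (-0.76, adjusted p = 1.05e-06), Fads2 (-0.43) and Fads1 (-0.35), which make long polyunsaturated fatty acids; Elovl7 was not tested. Of 11 tested genes of triglyceride assembly and export 5 rose and 6 did not pass, led by Lpin1, a phosphatidate phosphatase (2.29, SE 0.390, adjusted p = 0.000105), Lpin2 (0.82), Mttp, which loads lipid onto lipoproteins (0.69, adjusted p = 1.26e-09), and Agpat2 (0.50); Mogat2 was not tested. The 10 lipogenic genes themselves had a median of 0.45 in this comparison, with 2 that rose and 8 that did not pass.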

How the data were processed

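Stranded mRNA libraries from liver and left hippocampus (RNA integrity number above 8, paired-end DNBseq reads) were aligned by the authors with STAR to mm10 and counted per gene with HTSeq-count within BioWDL. The deposited values are raw read counts per Ensembl gene. The annotation release and the strand setting of the counting are not given in the sources used here. Summary lines that name no gene, 15.4 to 23.3% of liver reads, were kept out of library sizes. Symbols and exon lengths came from GENCODE for 55480 of 55573 IDs. An acute cohort of the series was not used here.

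A gene was tested where 3 or more libraries of any group held over 20 counts after median-of-ratios scaling: 12273 in liver, 14949 in hippocampus, 16205 over both. The main test was edgeR 4.0.16 (R 4.3.3) with TMM normalization, 1 coefficient per group, the quasi-likelihood F test and Benjamini-Hochberg adjustment over all genes tested, at 0.05. DESeq2 1.42.0, limma-voom 3.58.1 and 1 surrogate variable from sva 3.50.0 were alternatives, beside other normalizations, no filter, leaving out each library and a replicate block. CPM used TMM-scaled library sizes, and log2 CPM a prior count of 2. Limits from 3 counts cover counting error only. Following the study, 1 AS vehicle and 1 WT vehicle hippocampus (H9 and H13) were left out. On simulated liver counts the averaged CORT test over 12273 genes recovered 74% of genes changed by 0.6 and 95% of those changed by 1 on the log2 scale, with 2.87% false calls. The changed genes, 100 of each size, were drawn at random from all genes tested. Within-group SDs had a median of 0.194 over all genes tested and 0.716 over the 10 lipogenic genes. In the data 37.1% of genes passed this test, far more than were changed in the simulation. These rates therefore do not carry over to the 10 genes.

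The 10 genes, the pathway and marker lists and the tests were chosen with earlier results of these data known. All 10 are named in every comparison by value, range or count. Of the other lists, up to 4 genes with the largest change past the threshold are named, plus Insig1, Insig2, Nr1h3, Ppargc1b and all 6 GR targets; some items of these lists are not reported here.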

Additional observations from a re-analysis of the deposited data

Results flagged for a closer look

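In a search of 80 groups (10 genes in 8 groups) for a library far from the rest, 1 was found, and chance gives about 1 in 20 groups. Srebf1 was at 77.8 CPM in WT CORT hippocampus H15, and at 64.5 to 67.0 CPM in the other 4 hippocampi of that group.

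Averaged over genotypes, the CORT response of Me1 differed between the tissues, being higher in liver than in hippocampus by 0.79 on the log2 scale (edgeR adjusted p = 0.0231). Me1 was at 1.06 in WT liver, 0.01 in AS liver and -0.23 in hippocampus averaged over genotypes.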

How the results depend on the processing

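Among the 10 genes, limma-voom called 2 in WT liver upon CORT (Me1 and Thrsp), 1 in AS liver and 1 in the average over genotypes, and 1 surrogate variable called the same 2 in WT liver, against 1, 0 and 2 by edgeR; without 1 library the ranges were 0 to 3, 0 to 1 and 1 to 3. In AS liver Me1 was at -0.0334 with upper-quartile normalization and -0.22 with limma-voom, and with 1 surrogate variable Fasn was at 0.0682, Scd1 at 0.0711 and Pnpla3 at 0.28; without 1 library Me1 ranged from -0.27 to 0.22, Fasn from -0.29 to 0.14, Scd1 from -0.61 to 0.0741 and Pnpla3 from -1.24 to 0.10. The Me1 difference between tissues was 0.67 with limma-voom (adjusted p = 0.0546), which called Thrsp instead (1.45, adjusted p = 0.0119). The cause was not tested.

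Over all genes, AS against WT with vehicle gave 2 calls, 44 by DESeq2 and 0 with only the 2 groups fitted (1 to 4 without 1 library); with CORT it gave 34, 93 by DESeq2, 78 by limma-voom and 86 with 1 surrogate variable (12 to 63); averaged over treatments it gave 40, 100 by DESeq2 and 93 with 1 surrogate variable (16 to 41). The interaction gave 0 calls, 9 by DESeq2, 2 with no filter, 1 by limma-voom and 2 with 1 surrogate variable (0 to 1). With all 20 hippocampus libraries, calls went from 436 to 203 in WT and from 564 to 221 in AS hippocampus, and from 2 to 0 of the 10 genes in the average; without 1 library they ranged from 251 to 469, 362 to 636, and 0 to 3 of the 10. In WT hippocampus alone 0 to 1 of the 10 passed, the 1 being Scd1 without H15. Srebf1 was at -0.0584 in AS hippocampus with all 20 libraries, and at -0.0935 to 0.0389 in WT hippocampus without 1 library.

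Liver and hippocampus labels share numbers, and the deviations of same-numbered libraries were correlated over 11017 genes at -0.0814 to 0.0762 (median 0.0145, 18 pairs, 0 above 0.1, 2 of 18 best with their own number), so these values gave no sign of pairing, although the mice gave both tissues. With a replicate block the tissue difference was called for 2 of the 10 genes, Me1 and Thrsp (1.22, adjusted p = 0.0471), against 1 without, and for 2504 against 3176 of all genes; liver against hippocampus kept 9 of the 10 with 14867 genes in all. Leaving out 1 library in the tissue comparisons was added after seeing the data and gave 1 to 2 of the 10 for the CORT difference and 9 in each fit for liver against hippocampus. Per kilobase of the longest transcript Mlxipl was at 80.8 and Acaca at 13.4 CPM. Depth limits Pnpla3, which had 0 to 49 counts in WT vehicle livers. The within-group SD of the 10 genes, 0.716 in the median, limits the differences that 5 mice a group can show.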
